A study of Mus musculus with 18 samples.

Results

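The genes described here are 10 of the JAK, STAT and SOCS families, found by symbol in the table of normalized read counts: the kinases Jak1, Jak2 and Jak3, the transcription factors Stat3, Stat4, Stat5a and Stat5b, and the inhibitors Socs1, Socs3 and Cish. They are 10 of the 37236 genes of the table, and all 10 had reads in every sample. RNA was sequenced from T cells that had infiltrated B16-OVA tumors, a mouse melanoma line that expresses ovalbumin as a model antigen, by 3′ mRNA sequencing, which counts the 3′ end of each transcript. All mice were on a C57BL/6 background and received 500000 tumor cells s.c., and the methods give an age of 8 to 12 weeks at tumor injection for the study's mice. From d3 they were given 0.5 mg of an anti-PD-L1 antibody (αPD-L1), which blocks the ligand of the inhibitory receptor PD-1, or of the control antibody IgG2b i.p. at intervals, and tumors were taken at d14. There were 4 groups, from Nr2f6+/+ (wild type) and Nr2f6-/- mice, with 3 samples of each genotype for IgG2b and 6 of each for αPD-L1. NR2F6 is a nuclear orphan receptor that restrains T-cell activation. Nr2f6-/- mice had been back-crossed 8 times and lack the gene in all of their cells, so that the tumor surroundings differ in genotype as well. CD4+ and CD8+ cells were taken with beads, pooled and sorted for CD3, and each value is therefore an average over both. In such bulk samples fewer cells of a type and less RNA per cell cannot be told apart. The labels do not say whether a sample was 1 mouse or a pool, and the published legend counts fewer mice in each αPD-L1 group than there are samples. Whether samples share a mouse was not tested, and the p-values measure the spread between these samples.

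Cytokines such as IL-2, IL-6, IL-12 and the interferons bind receptors that have no kinase of their own and rely on JAK kinases bound to their tails. The activated JAKs phosphorylate the receptor and the STAT proteins, which pair, enter the nucleus and switch on target genes. Among these targets are the SOCS genes and Cish, whose products bind receptors or JAKs and damp the signal again. In T cells STAT5 carries the signal of IL-2, IL-7 and IL-15, STAT3 that of IL-6, IL-10 and IL-21, and STAT4 that of IL-12.

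Windows at RefSeq transcript starts of the 10 genes were searched for the letters of a STAT site. The letters TTCNNNGAA, to which STAT dimers bind, were searched on both strands (the motif reads the same on either) in RefSeq windows of GRCm38.p6 from 250 bases before to 50 after each transcript start. All 10 genes had at least 1 window, 13 in all. The motif was found in 1 window each of Cish and Socs3 and in none of the other 11. All windows of Stat5a, Stat5b and Socs3 lay within the gene as annotated, so the 5′ ends of these genes were not searched. Of all 32851 windows, 8.3% held it, and 0.457% held it 2 times or more, as Cish did. A match is a description of the letters and not a measured binding site. The windows of the 2 genes are shown 5′ to 3′ because Cish and Socs3 are the feedback genes that the values below turn on, with the motif in capitals. The Cish window is chr9:107296409-107296708 on the + strand, and its motifs take bases 1 to 9 and 12 to 20 counted from the annotated start. The Socs3 window, of the RefSeq start that the table gives, is chr11:117969317-117969616 on the − strand, and its motif lies between 154 and 146 bases before that start. This start lies 970 bases inside the gene as annotated, so the Socs3 motif is within the gene and not before its 5′ end.
Cish: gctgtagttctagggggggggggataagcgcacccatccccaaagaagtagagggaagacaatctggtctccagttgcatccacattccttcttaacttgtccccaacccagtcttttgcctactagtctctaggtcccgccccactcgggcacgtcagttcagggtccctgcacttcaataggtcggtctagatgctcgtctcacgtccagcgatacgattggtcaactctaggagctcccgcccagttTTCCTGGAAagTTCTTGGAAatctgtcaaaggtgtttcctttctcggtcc
Socs3: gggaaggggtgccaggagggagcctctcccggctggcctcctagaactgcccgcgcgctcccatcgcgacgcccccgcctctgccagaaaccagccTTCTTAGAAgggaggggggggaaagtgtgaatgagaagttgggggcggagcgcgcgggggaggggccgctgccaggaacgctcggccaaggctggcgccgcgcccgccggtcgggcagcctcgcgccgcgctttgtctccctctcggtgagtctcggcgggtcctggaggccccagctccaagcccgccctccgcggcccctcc

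The deposited values are reads per gene divided by a size factor per sample. The reads on genes were between 12473391 and 18609482 per sample, and the 10 genes had between 228 (Stat5a) and 12269 (Jak1) reads in a sample, far above the 3 reads set as the floor. Levels are not compared between genes. Nr2f6 was at 0 in all 9 Nr2f6-/- samples and between 20.2 and 201 normalized counts in the Nr2f6+/+ samples. The T cell label was borne out by all 9 T cell markers, whose sum was between 91491 and 164474 normalized counts per sample. Markers of macrophages were present too (14 of 14 genes with reads), and their sum moved with treatment: it was between 15962 and 20373 in Nr2f6+/+ IgG2b, 9447 and 13167 in Nr2f6-/- IgG2b, 1664 and 6819 in Nr2f6+/+ αPD-L1 and 1092 and 2618 in Nr2f6-/- αPD-L1. Among them Lyz2 was lower with αPD-L1 in either genotype (log2 difference -2.83 in Nr2f6+/+ and -2.87 in Nr2f6-/- mice, limma adjusted p = 0.000387 and 0.000318), and C1qb in Nr2f6-/- mice (-3.27, limma adjusted p = 0.0123). Against Nr2f6+/+ IgG2b both genes were lower in Nr2f6-/- αPD-L1 as well, as were Adgre1, Apoe and Mrc1 (5 of 14 macrophage markers called). The platelet markers Ppbp and Pf4 (2 of 5 tested) summed with the others to between 2300 and 2611 in Nr2f6+/+ IgG2b, 268 and 703 in Nr2f6-/- IgG2b, 1.05 and 350 in Nr2f6+/+ αPD-L1 and 0 and 158 in Nr2f6-/- αPD-L1, and limma called Ppbp lower with αPD-L1 in Nr2f6+/+ mice and both lower in Nr2f6-/- αPD-L1 than in Nr2f6+/+ IgG2b. Melanoma markers had lower values in Nr2f6-/- mice: with αPD-L1 this held for all 6 tested (median log2 difference -1.24), with 0 past the adjusted threshold, and their sum was between 736 and 4371 against 2026 and 7149. The library numbers form 2 sets, 28 to 39 with replicates 1 to 3 of every group and 43 to 48 with replicates 4 to 6 of both groups given αPD-L1 and of no other.

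Differences were tested with limma on log2(normalized count + 1), over the 11992 genes with a mean of at least 10, with p-values adjusted over all of them after Benjamini and Hochberg. Differences and folds are on that scale. With an adjusted p under 0.05, 0 of the 10 genes were called in any of the 6 comparisons by limma, where the share of all tested genes was 0.175% between the genotypes with αPD-L1, 0% between the genotypes with IgG2b, 0.242% between αPD-L1 and IgG2b in Nr2f6+/+ mice, 0.325% in Nr2f6-/- mice, 0.617% for Nr2f6-/- αPD-L1 against Nr2f6+/+ IgG2b and 0% for the interaction of genotype and treatment. On the recovered reads, edgeR also called 0 of the 10 in any comparison (0.183%, 0%, 0.158%, 0.3%, 0.342% and 0% of all genes, in the same order). DESeq2 called 1 of the 10, Socs3 between the genotypes with αPD-L1, where its share of all genes was 1.53%, and 0 in the other comparisons (0.734%, 0.784%, 1.92%, 1.48% and 0.634%). At an unadjusted p under 0.05, limma gave 3 of the 10 between the genotypes with αPD-L1 (9.73% of all genes), 3 with IgG2b (5.35%), 2 between the treatments in Nr2f6+/+ mice (7.24%), 1 in Nr2f6-/- mice (9.7%), 1 for Nr2f6-/- αPD-L1 against Nr2f6+/+ IgG2b (9.04%) and 1 for the interaction (4.97%). Groups did not overlap for 0 of the 10 genes in the first comparison (0.592% of all genes), 4 in the second (14.2%), 3 in the third (4.54%), 1 in the fourth (5.12%) and 0 in the fifth (6.17%). The gene with the most distance between groups was Socs3, whose highest group mean was 3.74 times the lowest, whereas this ratio was between 1.2 (Socs1) and 1.93 (Stat5b) for the other 9.

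**Figure D1:**
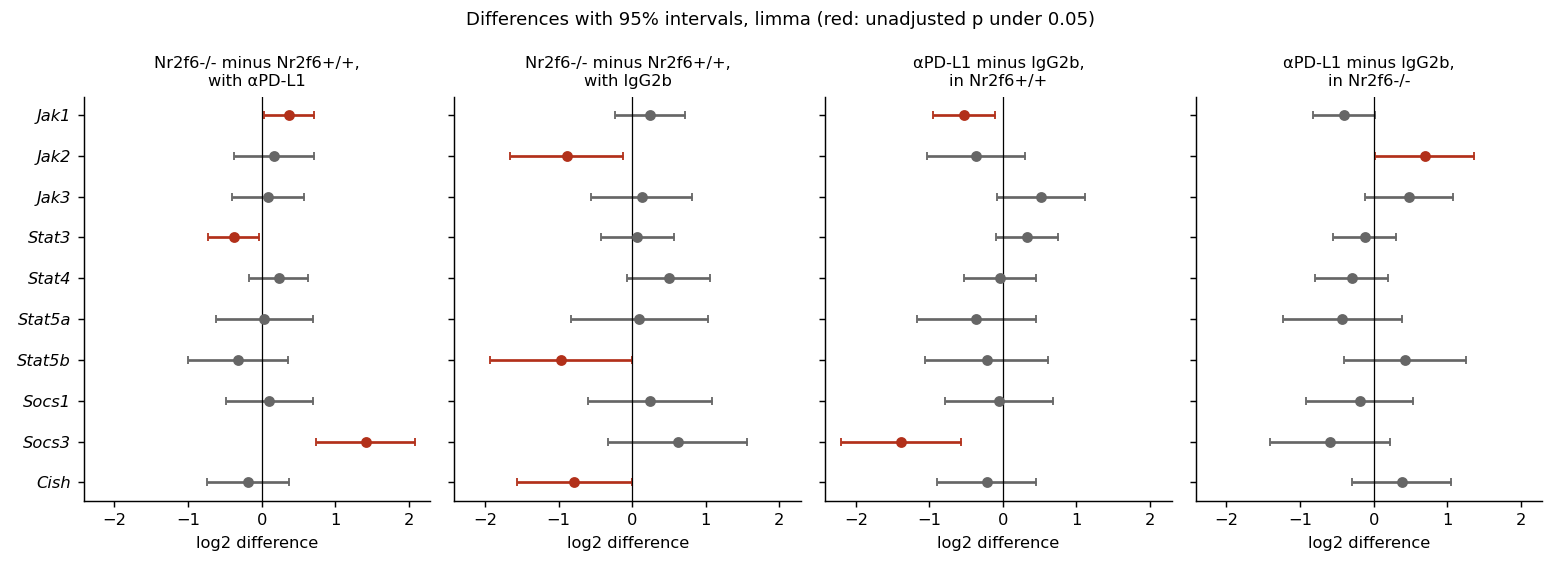
Log2 differences of the 10 genes (x axis) in 4 comparisons, with 95% intervals from limma over 18 samples, where red marks an unadjusted p under 0.05. Socs3 stands farthest from 0, at 1.41 between the genotypes with αPD-L1 and at -1.39 between the treatments in Nr2f6+/+ mice, and the other genes lie between -0.97 and 0.69.

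The JAK kinases come first. Jak1, which serves interferon, IL-2 and IL-6 type receptors alike, lies on chromosome 4 from 101151974 to 101265282 (GRCm38.p6, as for all positions here). It was at 8954, 6679 and 9433 normalized counts in Nr2f6+/+ IgG2b and at 9797, 9561 and 9948 in Nr2f6-/- IgG2b. With αPD-L1 the lowest, median and highest values were 4129, 6039 and 6671 in Nr2f6+/+ and 4956, 7573 and 10653 in Nr2f6-/- mice. Thus the αPD-L1 samples of Nr2f6+/+ mice all lay below the IgG2b samples of either genotype, while the Nr2f6-/- αPD-L1 samples were spread from 4956 to 10653. The log2 difference between αPD-L1 and IgG2b in Nr2f6+/+ mice was -0.53 (SE 0.20, adjusted p = 0.536), and the groups did not overlap. Between the genotypes with αPD-L1 it was 0.37 (SE 0.17, adjusted p = 0.468). The order of the means ran from Nr2f6-/- IgG2b through Nr2f6+/+ IgG2b and then Nr2f6-/- αPD-L1 down to Nr2f6+/+ αPD-L1, with none of the neighbours apart beyond the adjusted threshold. The annotation places the gene Raver2 over part of Jak1 on the opposite strand, and since the strand setting of the counting is not given, reads of the pair could be mixed. The same holds for Jak3 with Insl3, which overlaps it on its own strand, for Cish with gene models on the other strand, and for Stat4 with 1 gene model on each strand.

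Jak2, the kinase of IL-12, IL-6 and interferon-γ receptors, showed another order. Its values were 1118, 1566 and 1097 in Nr2f6+/+ IgG2b but 734, 621 and 657 in Nr2f6-/- IgG2b, and these groups did not overlap. The log2 difference was -0.89 (95% interval -1.66 to -0.12, adjusted p = 0.885). With αPD-L1 the lowest, median and highest values were 546, 1102 and 1748 in Nr2f6+/+ and 658, 1180 and 1292 in Nr2f6-/- mice, so that the genotypes overlapped widely. Within Nr2f6-/- mice αPD-L1 samples were higher by 0.69 (SE 0.33, adjusted p = 0.496), and 5 of the 6 lay above all IgG2b samples. The treatment difference was larger in Nr2f6-/- than in Nr2f6+/+ mice by 1.06 (95% interval 0.11 to 2, adjusted p = 0.974 for the interaction). Jak2 lies on chromosome 19 from 29251803 to 29313095, with no other gene annotated over it.

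Jak3, which pairs with the common γ chain of the IL-2 receptor family, is a neighbour of Nr2f6: it lies on chromosome 8 from 71676383 to 71690577, 0.294 Mb away. No difference between the genotypes was detected for it. The log2 difference between Nr2f6-/- and Nr2f6+/+ mice was 0.09 with αPD-L1 (95% interval -0.40 to 0.58, adjusted p = 0.932) and 0.13 with IgG2b (95% interval -0.56 to 0.82, adjusted p = 1). Its means lay farther apart by treatment. The Nr2f6+/+ IgG2b samples were at 698, 857 and 876 normalized counts and the Nr2f6+/+ αPD-L1 samples between 945 and 1507 (median 1110), with no overlap but with an adjusted p of 0.767 in limma (log2 difference 0.52, SE 0.29). In Nr2f6-/- mice the values were 1284, 730 and 729 with IgG2b and between 731 and 1937 (median 1255) with αPD-L1. Both αPD-L1 groups thus had the higher mean. Against Nr2f6+/+ IgG2b, Nr2f6-/- αPD-L1 was higher by 0.61 (adjusted p = 0.528).

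Of the STAT genes, Stat3, Stat5a and Stat5b are neighbours on chromosome 11. Stat3 (100886806 to 100939594) was at 6957, 5103 and 5644 normalized counts in Nr2f6+/+ IgG2b and at 5312, 6229 and 7007 in Nr2f6-/- IgG2b. With αPD-L1 it was between 6314 and 8297 (median 7393) in Nr2f6+/+ mice. The Nr2f6-/- αPD-L1 samples fell apart by library number, with replicates 1 to 3 at 4149, 4708 and 4077 and replicates 4 to 6 at 7936, 7197 and 7092. Replicates 1 to 3 were the lowest values of the series and replicates 4 to 6 were among the higher ones. The log2 difference between the genotypes with αPD-L1 was -0.38 (SE 0.17, adjusted p = 0.468) over all samples, -0.90 within libraries 28 to 39 (adjusted p = 0.0412, where 0.284% of all genes passed) and 0.14 within libraries 43 to 48. The annotation lets Stat3 and Stat5a overlap on opposite strands, and reads of the pair could be mixed.

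Stat4, the factor of IL-12 signaling and type 1 helper cells (chromosome 1, 51987106 to 52107189), had 1793, 1789 and 2838 normalized counts in Nr2f6+/+ IgG2b and 3549, 2752 and 2598 in Nr2f6-/- IgG2b. With αPD-L1 the lowest, median and highest values were 1432, 2169 and 2485 in Nr2f6+/+ and 1599, 2451 and 3247 in Nr2f6-/- mice. The Nr2f6-/- means were the higher ones under both antibodies, but the samples overlapped. The log2 difference was 0.49 with IgG2b (95% interval -0.07 to 1.06, adjusted p = 0.955) and 0.23 with αPD-L1 (95% interval -0.17 to 0.63, adjusted p = 0.746).

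Stat5a and Stat5b are near-identical copies that act downstream of IL-2, and reads that fit both could be assigned to either. Stat5a (100859351 to 100885169) had values of 782, 713 and 561 in Nr2f6+/+ IgG2b and of 731, 716 and 733 in Nr2f6-/- IgG2b. With αPD-L1 it was between 238 and 1103 (median 575) in Nr2f6+/+ mice, the widest spread of any group and gene here (coefficient of variation 55.3%), and between 425 and 678 (median 548) in Nr2f6-/- mice. All Nr2f6-/- αPD-L1 samples lay below the Nr2f6-/- IgG2b samples, with a log2 difference of -0.43 and an adjusted p of 0.794.

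Stat5b (100780731 to 100859004) was lower in Nr2f6-/- mice with IgG2b, at 359, 392 and 556 normalized counts against 739, 975 and 813 in Nr2f6+/+ mice. Those groups did not overlap, and the log2 difference was -0.97 (95% interval -1.93 to -0.0031, adjusted p = 0.92). With αPD-L1 the values ran from 336 to 1116 (median 796) in Nr2f6+/+ and from 260 to 1197 (median 551) in Nr2f6-/- mice, and the log2 difference of -0.32 was within the spread between samples (SE 0.33, adjusted p = 0.799). Stat5a and Stat5b did not move together over the 18 samples (Pearson's r = -0.09, across samples that share libraries and groups).

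**Figure D2:**
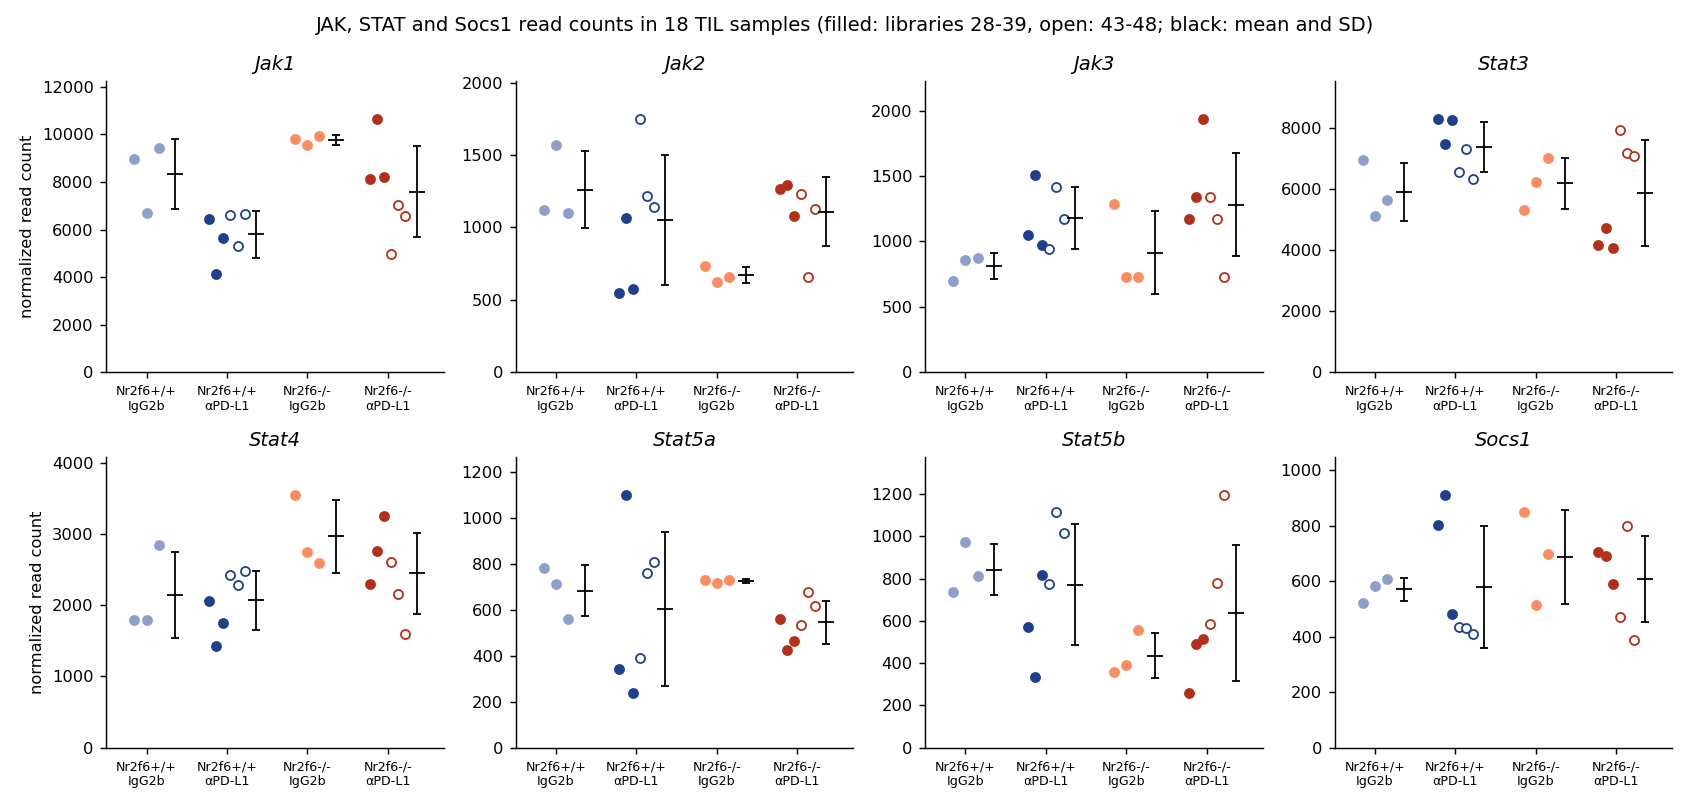
Normalized read counts (y axis) of the JAK and STAT genes and Socs1 in each of the 18 samples by group, with mean and SD in black. Filled points are libraries 28 to 39 and open points 43 to 48. The 2 kinds of point separate for Stat3 in Nr2f6-/- αPD-L1, at 4077 to 4708 against 7092 to 7936. They also separate for Jak1 and Stat5b in Nr2f6-/- αPD-L1 and for Jak2, Stat3, Stat4 and Socs1 in Nr2f6+/+ αPD-L1. Over all genes such separation was not counted.

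The feedback inhibitors differed more among themselves. Socs3, which binds the IL-6 and related receptors and blocks their JAKs, lies on chromosome 11 from 117966079 to 117970336. It was at 988, 1689 and 991 normalized counts in Nr2f6+/+ IgG2b and at 1505, 1660 and 2397 in Nr2f6-/- IgG2b. With αPD-L1 the lowest, median and highest values were 245, 444 and 811 in Nr2f6+/+ mice and 471, 1357 and 2033 in Nr2f6-/- mice. The Nr2f6+/+ αPD-L1 samples were thus the low group of the series. All of them lay below every IgG2b sample, and 5 of the 6 Nr2f6-/- αPD-L1 samples lay above all of them, with replicate 5 (471) as the exception.

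The mean of Socs3 was 1330 ± 563 (SD, n = 6) in Nr2f6-/- αPD-L1 and 496 ± 232 (SD, n = 6) in Nr2f6+/+ αPD-L1. The log2 difference was 1.41 (SE 0.33, 95% interval 0.75 to 2.08), a fold of 2.66. The adjusted p was 0.0634 in limma and 0.0641 in edgeR, which miss the threshold, and 0.00384 in DESeq2, which passes it. On simulated data DESeq2 made 41 false calls beside 92 changed genes recovered. There limma and edgeR made 2 false calls each, beside 79 and 80 recovered. The simulation covered all 11992 tested genes and its false calls were not split by level, so it cannot judge the Socs3 call. Ordered by limma's p, Socs3 stood at rank 29 of the 11992 genes. Without Nr2f6-/- αPD-L1 replicate 5 the difference was 1.68 (adjusted p = 0.00997 in limma), and without Nr2f6+/+ αPD-L1 replicate 6 it was 1.58 (adjusted p = 0.0346 in limma). These were the lowest value of the Nr2f6-/- group and the highest of the Nr2f6+/+ group. Leaving out any other single sample gave no call. The difference was above 0 under all 32 other settings and fits tried. It ran from 0.65 in libraries 43 to 48 (adjusted p = 0.803 in limma) to 2.18 in libraries 28 to 39 (adjusted p = 0.00704 in limma). In the same comparison the macrophage sum was 1092 to 2618 in Nr2f6-/- against 1664 to 6819 in Nr2f6+/+ mice and the T cell sum 135334 to 164474 against 97877 to 149228, the melanoma sum differed as given above, and the part of these in the result was not tested.

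In Nr2f6+/+ mice Socs3 was lower with αPD-L1 than with IgG2b, without overlap, by a log2 difference of -1.39 (SE 0.40, adjusted p = 0.201 in limma, beside a median of -0.10 over all genes), and within libraries 28 to 39 by -1.60 (adjusted p = 0.0404 in limma, where 0.25% of all genes passed). The comparison shares the Nr2f6+/+ αPD-L1 samples with the one above. The macrophage and platelet sums were lower with αPD-L1 in the same samples, as given above, and their part was not tested. In Nr2f6-/- mice the treatments differed by -0.59 (95% interval -1.41 to 0.23, adjusted p = 0.689), and the macrophage sum there was at least 9447 with IgG2b and at most 2618 with αPD-L1. The genotypes with IgG2b differed by 0.62 (95% interval -0.33 to 1.56, adjusted p = 0.989), and Nr2f6-/- αPD-L1 differed from Nr2f6+/+ IgG2b by 0.03 (95% interval -0.79 to 0.84). The interaction was 0.80 (95% interval -0.36 to 1.95, adjusted p = 0.975 in limma). Within libraries 28 to 39, which hold all 4 groups, it was 1.56 (adjusted p = 0.517 in limma). A genotype difference that depends on the antibody was thus not shown. The order of the means ran from Nr2f6-/- IgG2b through Nr2f6-/- αPD-L1 and then Nr2f6+/+ IgG2b down to Nr2f6+/+ αPD-L1, with none of the neighbours apart beyond the adjusted threshold in limma.

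Cish, a STAT5 target whose product damps IL-2 and T-cell receptor signals (chromosome 9, 107296659 to 107302784), had a different order from Socs3. It was at 2438, 1549 and 1783 normalized counts in Nr2f6+/+ IgG2b and at 1251, 870 and 1203 in Nr2f6-/- IgG2b. Every Nr2f6-/- sample was lower, with a log2 difference of -0.79 (95% interval -1.57 to -0.01, adjusted p = 0.92). With αPD-L1 the lowest, median and highest values were 878, 1654 and 2685 in Nr2f6+/+ and 695, 1506 and 2190 in Nr2f6-/- mice, and the difference of -0.18 was within the spread (SE 0.27, adjusted p = 0.87). With IgG2b, Cish, Stat5b and Jak2 were thus the 3 of the 10 genes that were lower in Nr2f6-/- mice at an unadjusted p under 0.05, each without overlap, against 8.07% of all genes that were lower without overlap. None had a difference of that kind with αPD-L1. In the same IgG2b samples the sum of melanoma markers was between 1156 and 2336 in Nr2f6-/- and between 2495 and 4665 in Nr2f6+/+ mice, and the macrophage and platelet sums did not overlap between the genotypes either, as given above, and their part was not tested.

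Socs1, the inhibitor of interferon-γ signaling (chromosome 16, 10783808 to 10785536), differed least between the groups. Its values were 524, 582 and 607 in Nr2f6+/+ IgG2b, 850, 514 and 700 in Nr2f6-/- IgG2b, between 410 and 912 (median 459.5) in Nr2f6+/+ αPD-L1 and between 389 and 799 (median 641) in Nr2f6-/- αPD-L1. The 4 groups overlapped. Between the genotypes with αPD-L1 the log2 difference was 0.10 (95% interval -0.49 to 0.70, adjusted p = 0.938), which does not reach the difference of 1.41 seen for Socs3.

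**Figure D3:**
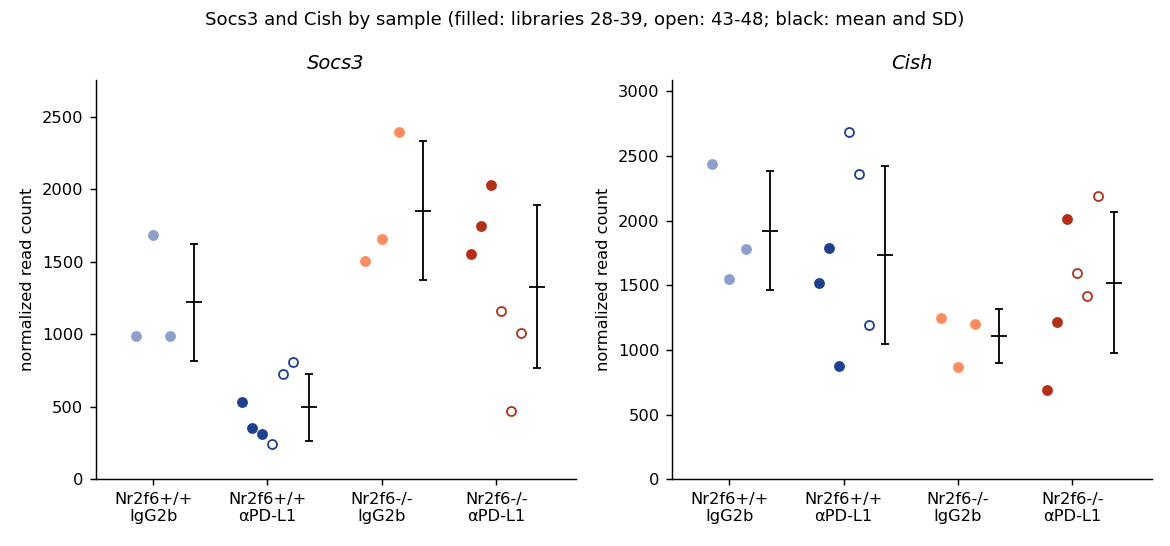
Normalized read counts (y axis) of Socs3 and Cish in each of the 18 samples by group, with mean and SD in black, filled points for libraries 28 to 39 and open points for 43 to 48. The Nr2f6+/+ αPD-L1 samples are the low group for Socs3 (245 to 811), and the Nr2f6-/- IgG2b samples lie below the Nr2f6+/+ IgG2b samples for Cish (870 to 1251 against 1549 to 2438).

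Since each αPD-L1 group has 3 samples in each library number set, the genotype difference could be taken within each. In libraries 28 to 39 the log2 difference was 2.18 for Socs3, 0.80 for Jak2, 0.75 for Jak1, 0.67 for Stat4 and -0.90 for Stat3. In libraries 43 to 48 it was 0.65 for Socs3, -0.47 for Jak2, -0.01 for Jak1, -0.21 for Stat4 and 0.14 for Stat3. The signs of Jak1, Jak2, Stat3 and Stat4, as well as of Jak3, Stat5a and Socs1, turned between the sets, while Socs3, Stat5b and Cish kept theirs. The difference between the sets was itself tested with limma as the interaction of genotype and library set over the 12 samples, a test added after these values were seen. It was 1.03 for Stat3 (95% interval 0.55 to 1.52, adjusted p = 0.377) and -1.53 for Socs3 (95% interval -2.93 to -0.14, adjusted p = 0.771). None of the 10 genes passed the adjusted threshold and 5 had an unadjusted p under 0.05 (Stat3, Jak2, Stat4, Jak1 and Socs3), against 0% and 6.35% of all genes.

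**Figure D4:**
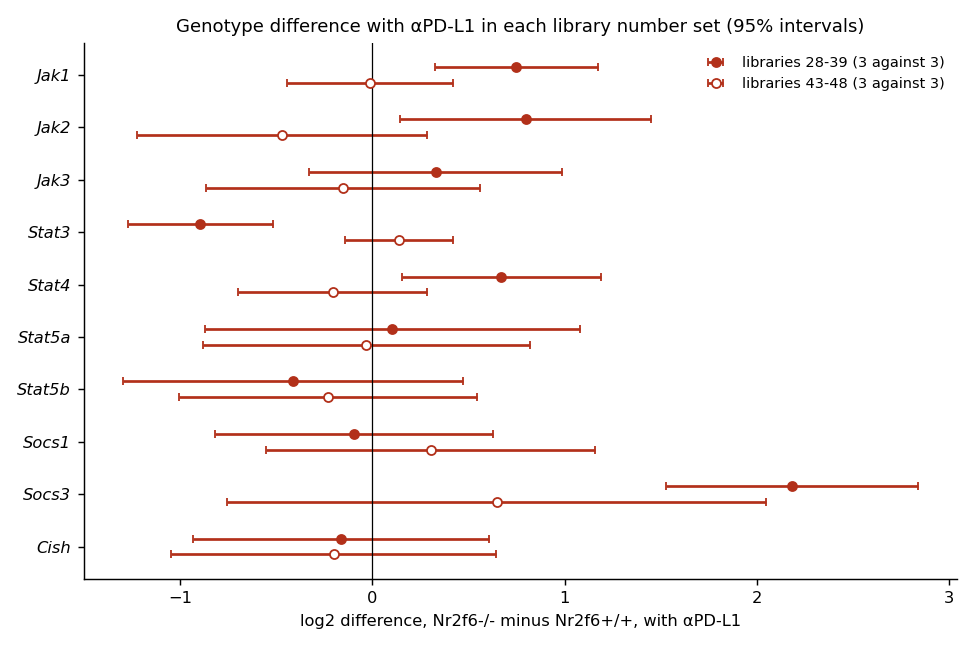
Log2 difference between Nr2f6-/- and Nr2f6+/+ mice with αPD-L1 (x axis) for each gene within each library number set, 3 samples against 3, with 95% intervals from limma. Stat3 lies at -0.90 in libraries 28 to 39 (filled) and at 0.14 in libraries 43 to 48 (open), and Socs3 is above 0 in both, at 2.18 and 0.65.

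The rest of the pathway was followed through gene lists. Of 8 other JAK, STAT and SOCS genes (Tyk2, Stat2, Stat6, Socs2, Socs4, Socs5, Socs6 and Socs7), 0 passed the adjusted threshold in limma in any comparison. Between the genotypes with αPD-L1 their log2 differences lay between -0.25 (Stat6) and 0.87 (Socs5), with adjusted p-values of at least 0.749. Tyk2, the remaining JAK kinase, was at 0.17 (adjusted p = 0.898), Stat2, a factor of type I interferon signaling, at 0.45 (SE 1.08), Socs2 at -0.02, Socs4 at 0.16, Socs6 at -0.19 and Socs7 at 0.25.

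Of the genes around these families, 0 of 11 other inhibitors (PIAS proteins and phosphatases among them), 0 of 19 cytokine receptor genes tested and 0 of 6 cytokine genes tested of 18 passed the adjusted threshold of limma in any comparison. Nor did any of 11 STAT5, 9 STAT3 and 8 STAT4 target genes tested, and edgeR called 0 of all these too. DESeq2 called 3 of them, each without overlap of the groups. The phosphatase gene Ptpn1 (adjusted p = 0.0101 in DESeq2) and the cyclin gene Ccnd3 (adjusted p = 0.0444 in DESeq2) were higher with αPD-L1 than with IgG2b in Nr2f6-/- mice. Of all genes, DESeq2 called 1.92% there and 5.12% did not overlap. Ifng (adjusted p = 0.0161 in DESeq2) was higher in Nr2f6-/- αPD-L1 than in Nr2f6+/+ IgG2b, where those shares were 1.48% and 6.17%. The values of the 3 genes were seen before they were named for these comparisons. With αPD-L1, the median log2 difference between the genotypes was 0.10 over the 10 genes described here, 0.16 over the 8 other family genes, -0.11 over the other inhibitors, 0.00 over the receptors, 0.03 over the cytokines, 0.03 over the STAT5 targets, -0.19 over the STAT3 targets and -0.07 over the STAT4 targets, beside 0.00 over all tested genes. In this comparison the lists thus lay close to the median of all genes. Elsewhere some lay farther from it. The cytokine median was 0.61 between the genotypes with IgG2b, beside -0.06 over all genes. Of the 6 cytokine genes, 0 had an unadjusted p under 0.05 there in limma, and Lif and Osm had samples at 0. The receptor median was -0.44 between the treatments in Nr2f6+/+ mice, beside -0.10.

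Single genes of these lists, named because they had the smallest p-values of their list in that comparison, differed in either direction. Il10, an anti-inflammatory cytokine that signals through STAT3, had a mean of 574 against 246 (log2 difference 1.73, SE 0.52, adjusted p = 0.22 in limma). Il6st, the shared receptor chain of the IL-6 family to which SOCS3 binds, had a mean of 434 against 218 (1.65, SE 0.67, adjusted p = 0.40 in limma). Its lowest Nr2f6+/+ αPD-L1 sample was near the floor, at 5.10 normalized counts beside a group median of 253, which widens the log2 difference. Il4ra, the IL-4 receptor chain, was at -0.74 (adjusted p = 0.352 in limma). Ptprc, the phosphatase CD45, was at 0.23 and Pias4 at -0.78. Among the target genes, Dusp5 and Pim2 (STAT5) were at 0.60 and 0.68, Junb and Maf (STAT3) at 0.81 and -0.51, and Ifng and Il18r1 (STAT4) at 0.35 and -0.70. None of these differences passed the adjusted threshold.

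**Figure D5:**
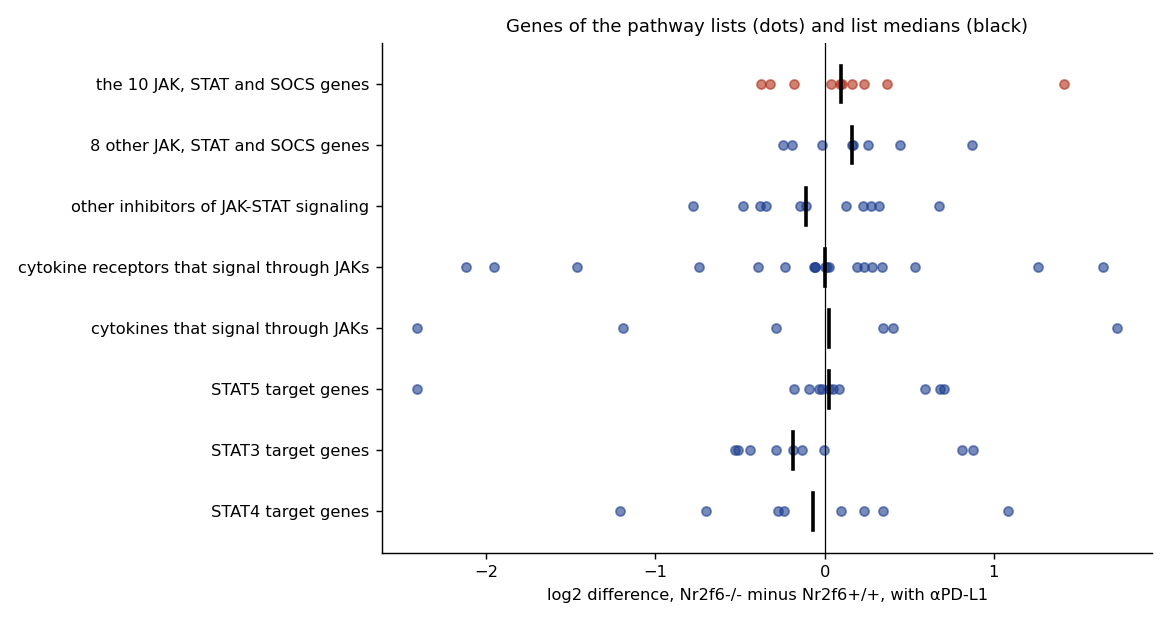
Log2 difference between Nr2f6-/- and Nr2f6+/+ mice with αPD-L1 (x axis) for every tested gene of each pathway list, 1 dot a gene, with the list median as a black bar. The medians lie between -0.19 and 0.16, and Socs3 is the dot at 1.41 in the top row.

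The 10 genes did not vary as one unit across the 18 samples. Pearson's r of log2 values between pairs of them ran from -0.67 (Stat5b and Socs1) to 0.64 (Jak1 and Socs3), a description across samples that share groups and libraries. Socs3 went with Jak1 (0.64) and Stat4 (0.51) and against Stat3 (-0.62), and Cish with Stat5b (0.51) and Jak2 (0.46). Within groups, after each group's mean was removed, these were 0.20, 0.30, -0.50, 0.37 and 0.33. Library sets were not removed, so the values within groups, here and below, still hold differences between the sets. Over all tested genes, those most like Socs3 were Dusp1 (r = 0.86), a phosphatase of MAP kinases, the gene model Gm26244 (0.84) and Nfkbiz (0.84), which encodes a nuclear IκB protein. Within groups those were 0.80, 0.64 and 0.59. Those most like Cish were 4931406C07Rik (0.81), Ing2 (0.79) and Exosc5 (0.79), and those most like Socs1 were Ak6 (0.79), A530017D24Rik (0.76) and 2610037D02Rik (0.75). The median coefficient of variation within groups was between 14.9% (Stat3) and 37.7% (Socs3) for the 10 genes, below the median of 46.8% over all tested genes. The latter include genes down to a mean of 10 and were not matched to the 10 genes for level. Whether the lower values are a trait of these families was therefore not tested.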

How the data were processed

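The sample labels gave genotype, antibody and replicate number. The authors processed the reads, per the paper's methods and the submitters' processing notes, with Cutadapt, Trimmomatic, STAR, Bowtie2 and HTSeq on mm10, removed reads under 22 nucleotides and kept primary alignments. They deposited 1 signal value per gene and sample, the read count divided by a DESeq2 size factor. The annotation, the strand setting and the tool versions are not given in the sources used here. Size factors were between 0.823 and 1.22, and 100% of the values gave whole reads (tolerance 0.001 reads). Since the deposited values are not raw counts, limma (version 3.58.1, R 4.3.3) was the main test. It was run on log2(normalized count + 1) with 1 model of 4 group means and eBayes with a trend. Alternatives were edgeR 4.0.16 and DESeq2 1.42.0 on the recovered reads. The tests were checked on simulated data with 200 changed genes of 11992. There limma recovered 79 with 2 false calls, edgeR 80 with 2 and DESeq2 92 with 41. Tests were two-sided with a threshold of 0.05.

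The 10 genes and the gene lists were chosen with earlier results of these data known. Beside the 10 genes, Nr2f6 and the rest of the families, the rule named from each other list the genes past the adjusted threshold and the 2 with the smallest p between the genotypes with αPD-L1, and the 3 genes most correlated with Socs1, Socs3 and Cish. Of the marker lists, those of T cells, macrophages, platelets and melanoma cells are described; in the others (dendritic, B, NK, neutrophil, fibroblast and endothelial) limma called 0 genes and the 2 with the smallest p are not named. One gene and 1 list are not reported here. The test of genotype by library set was added after seeing the data. Positions and promoter windows are RefSeq's for GRCm38.p6, the assembly mm10 stands for, and overlaps are from GENCODE vM21.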

Additional observations from a re-analysis of the deposited data

Results flagged for a closer look

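Each of the 10 genes was searched for a lone sample at a distance from its group, in both groups of 6 samples (20 searches), and 1 was found. Jak2 in Nr2f6-/- αPD-L1 replicate 5 was at 658 normalized counts, while the nearest of the other 5 samples was at 1075, a gap of 0.727 of the group's range on the log2 scale against a limit of 0.625. Chance alone gives about 1 such sample in 20 searches. The same replicate held the lowest Socs3 value of its group, 471. No gene's treatment difference was shown to depend on genotype.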

How the results depend on the processing

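Of 1860 differences of the 10 genes recomputed under the alternatives, 7 newly passed the threshold and 0 lost a call, since limma had made none. A further 11 changed sign and moved by more than the spread. The remaining 1842 kept their side of the threshold, and 74 of the 1860 changed sign. Shifts without a change of sign were not limited in size among the 1842. Between the genotypes with αPD-L1, Jak1 was at 0.37 (SE 0.17) over all samples and at 0.75 in libraries 28 to 39. Jak2 was at 0.16 (SE 0.27) and 0.80. Between the genotypes with αPD-L1, the count of the 10 genes called was 1 with a pseudocount of 10 or with DESeq2, 2 in libraries 28 to 39 (Socs3 and Stat3), and between 0 and 1 when leaving out 1 sample. Between the treatments in Nr2f6+/+ mice it was 1 in libraries 28 to 39 (Socs3). Leaving out 1 sample gave 0 in the other comparisons.

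Over all tested genes, the 21 calls between the genotypes with αPD-L1 became 9 without a filter, 34 in libraries 28 to 39, 0 in libraries 43 to 48, 184 with DESeq2, 4 with those groups alone, and between 9 and 28 when leaving out 1 sample. The 0 calls between the genotypes with IgG2b became 1 with a pseudocount of 10, 14 without a filter, 4 with sample weights and 88 with DESeq2. The 29 calls between the treatments in Nr2f6+/+ mice became 60 with a pseudocount of 10, 19 with a mean of at least 50, 12 with the library set as covariate, 87 with sample weights, 19 with edgeR, 94 with DESeq2, 15 with those groups alone, and 6 to 30 when leaving out 1 sample. The 39 calls between the treatments in Nr2f6-/- mice became 17 without a filter, 8 in libraries 28 to 39, 230 with DESeq2, 19 with those groups alone, and 14 to 49 when leaving out 1 sample. The 74 calls between Nr2f6-/- αPD-L1 and Nr2f6+/+ IgG2b became 116 with a pseudocount of 10, 300 with sample weights, 41 with edgeR, 177 with DESeq2, and 10 to 101 when leaving out 1 sample. The 0 calls of the interaction became 5 without a filter and 76 with DESeq2. The cause was not tested, beyond the fewer samples of single sets and groups.

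Deviations from the group means had r between -0.029 and 0.037 (median 0.0083) in 21 pairs of same-numbered samples. In 42 pairs of other numbers from the same library set, r was between -0.040 and 0.045 (median -0.0015). With 0 pairs of either kind over 0.1, that limit does not separate them. Of 18 samples, 10 correlated best with one of their own number, and whether the numbers pair samples was not settled. With the replicate number as a block, 0 of the 10 genes were called in any comparison, and the calls over all genes between the treatments in Nr2f6+/+ mice became 12. The median of all genes for the treatments in Nr2f6+/+ mice was -0.10 on the log2 scale, 0.00 after quantile normalization, -0.19 with equal totals and 0.04 with edgeR, and for Nr2f6-/- αPD-L1 against Nr2f6+/+ IgG2b it was -0.12, 0.00, -0.19 and 0.01. Socs3 kept its sign under each in the first of these and between the genotypes with αPD-L1.

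The IgG2b groups hold 3 samples each, and only libraries 28 to 39 hold all 4 groups, so that treatment and library set cannot be told apart outside them. Depth did not limit these genes, which had at least 228 reads in each sample.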
